A study of Mus musculus with 9 samples.

Results

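The angiotensin-processing enzymes and receptor partners were 9 genes, taken by symbol from a table of 18094 genes: Ace, Thop1, Mme, Enpep, Prcp, Lnpep, Agtr1a, Agtrap and Atp6ap2. They were measured by RNA sequencing of endothelial cells freshly isolated from mouse hearts with antibody-coated magnetic beads. The libraries fell into 3 groups of 3: BPN/3J mice, the normotensive strain, at 22 weeks of age, and hypertensive BPH/2J mice at 4 weeks and at 22 weeks. BPN/3J was measured at 22 weeks only, so its own course with age is not analysed here. No agent or engineered allele is named for any group, and the labels do not say whether the 3 libraries of a group came from separate animals, so p-values measure the spread between libraries. With 1 inbred line on each side, blood pressure and all other differences between the lines cannot be told apart.

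The renin-angiotensin system cuts the liver protein angiotensinogen into small peptides that set vessel tone and salt balance. Renin releases angiotensin I, and angiotensin-converting enzyme, which sits on the luminal face of endothelial cells, trims it to angiotensin II, the ligand of the type 1 receptor. Other peptidases divert angiotensin I to angiotensin-(1-7) or break angiotensin II down, so the peptide that reaches a receptor depends on the set of enzymes on the vessel wall. Several of these enzymes also cut bradykinin, a peptide that relaxes vessels.

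Libraries held 28806840 to 32913813 counts. Levels are given as CPM, the count scaled to its library's total. A gene with no count could still have up to 3, or 0.0911 to 0.104 CPM, which is taken as the floor and covers counting error only. All 9 genes passed the filter on low counts, which kept 15277 genes. Replicate 1 of 4-week BPH/2J stood apart from its group: a chi-square per degree of freedom over genes was 49.1 and 42.7 against the other two libraries and 6.06 between those, against 10.1 to 22.0 within the other groups. The 12 endothelial markers summed to 14985 to 17605 CPM in every library, above each list of other heart cells, whose transcripts were present too. In such bulk samples, fewer cells of a type and less RNA per cell cannot be told apart. CPM values carry a further scaling for library composition, and means are given ± SD with n = 3.

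The 9 genes fell into a few patterns over the groups. Agtrap, Enpep and Mme were highest in BPN/3J, lower in 22-week BPH/2J and lowest in 4-week BPH/2J. Thop1 and Prcp had the opposite order. Ace was low in 4-week BPH/2J alone, Agtr1a was high in BPN/3J alone, and Lnpep and Atp6ap2 moved little. The 3 comparisons share libraries with each other, so the values of a gene in them are not independent.

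Between the strains at 22 weeks, 2 of the 9 genes were higher in BPH/2J (Thop1 and Prcp) and 4 were lower (Agtrap, Enpep, Mme and Agtr1a), by edgeR's quasi-likelihood test at an adjusted p of 0.05. Over all tested genes 38% passed, 19.8% higher and 18.2% lower. Between 4 and 22 weeks within BPH/2J, 4 genes were higher at 22 weeks (Ace, Agtrap, Enpep and Mme) and 2 were lower (Thop1 and Prcp), against 41% of all tested genes, 19.9% higher and 21.1% lower. Between 4-week BPH/2J and BPN/3J, which differ in strain and age at once, 2 genes were higher in BPH/2J (Thop1 and Prcp) and 6 were lower, all but Lnpep, against 53.1% of all tested genes, 27.8% higher and 25.3% lower. The median size of the log2 difference over the 9 genes was 0.42, 0.65 and 1.16 in these comparisons, beside 0.26, 0.28 and 0.35 over all tested genes. The 9 genes were chosen with earlier results of these data known, so their counts and sizes are descriptions and no test of the set. The libraries of the compared groups did not overlap for 7, 6 and 8 of the 9 genes, beside 55.7%, 51.2% and 59.2% of all tested genes. Without replicate 1 of 4-week BPH/2J, 7, 6 and 8 of the genes passed. Over all genes 7117, 7383 and 8682 then passed, beside 5810, 6257 and 8115 with every library. The strain count of 6 fell to 3 without BPN/3J replicate 2, and to 4 without BPN/3J replicate 3 or without replicate 2 or 3 of 22-week BPH/2J. The strain count over all genes fell in these fits as well, to 4637, 4496, 4746 and 4362 in that order.

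**Figure D1:**
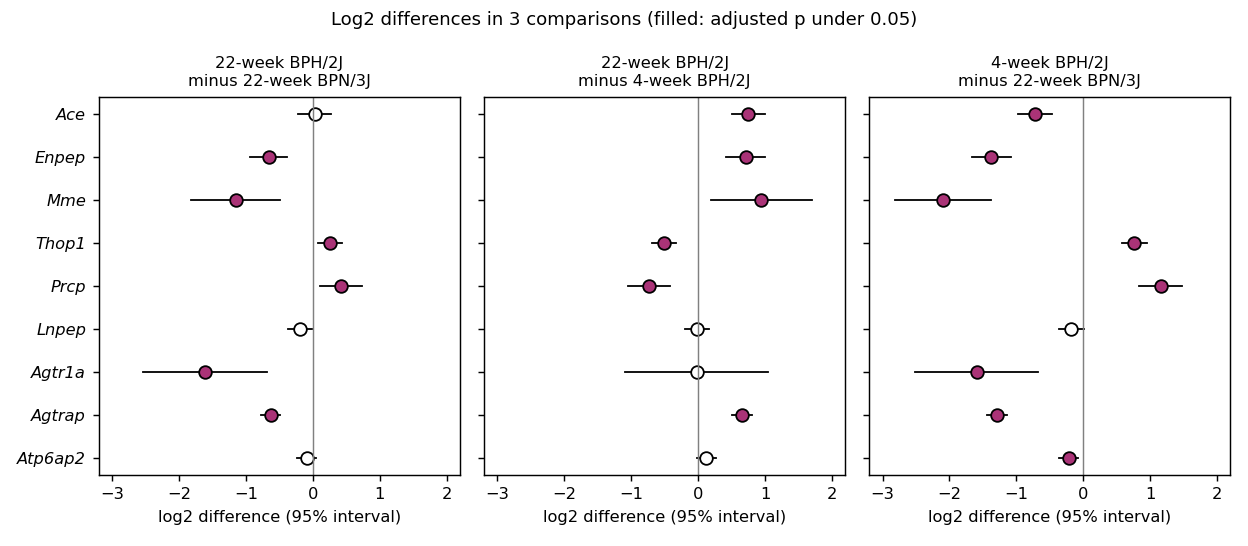
Log2 difference of each of the 9 genes in the 3 comparisons, with 95% intervals, where filled points passed an adjusted p of 0.05 and the vertical line marks no difference. Agtrap, Enpep and Mme lie below 0 in the strain comparison and above 0 in the age comparison, Prcp and Thop1 do the reverse, and Lnpep stays within 0.19 of 0 in all 3.

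Agtrap, Enpep and Mme, which shared one order of groups, are shown by the 250 bases before their RefSeq start in the GRCm38.p6 assembly, with Atp6ap2, whose level moved little, for contrast. Capitals mark the 4 motifs searched on both strands: the GC box GGGCGG, the TATA core TATAA, the CCAAT box CCAAT and the E-box CACGTG. The windows are chr4:148088065-148088314 on the minus strand for Agtrap, chr3:129332750-129332999 on the minus strand for Enpep, chr3:63294961-63295210 on the plus strand for the most upstream start of Mme, and chrX:12587509-12587758 on the plus strand for Atp6ap2.
Agtrap: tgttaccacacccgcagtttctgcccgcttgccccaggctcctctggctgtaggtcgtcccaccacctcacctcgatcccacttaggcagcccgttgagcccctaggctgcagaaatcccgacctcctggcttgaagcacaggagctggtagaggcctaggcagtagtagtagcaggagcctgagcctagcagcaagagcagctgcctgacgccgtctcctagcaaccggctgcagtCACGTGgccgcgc
Enpep: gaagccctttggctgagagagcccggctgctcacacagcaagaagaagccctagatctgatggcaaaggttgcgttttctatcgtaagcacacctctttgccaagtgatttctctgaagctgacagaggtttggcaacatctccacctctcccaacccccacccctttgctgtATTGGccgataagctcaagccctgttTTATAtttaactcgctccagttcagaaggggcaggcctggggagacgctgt
Mme: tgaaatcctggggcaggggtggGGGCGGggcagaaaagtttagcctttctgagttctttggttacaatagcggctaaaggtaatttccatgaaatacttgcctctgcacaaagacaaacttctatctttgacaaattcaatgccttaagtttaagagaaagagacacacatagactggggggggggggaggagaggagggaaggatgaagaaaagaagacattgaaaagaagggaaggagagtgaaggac
Atp6ap2: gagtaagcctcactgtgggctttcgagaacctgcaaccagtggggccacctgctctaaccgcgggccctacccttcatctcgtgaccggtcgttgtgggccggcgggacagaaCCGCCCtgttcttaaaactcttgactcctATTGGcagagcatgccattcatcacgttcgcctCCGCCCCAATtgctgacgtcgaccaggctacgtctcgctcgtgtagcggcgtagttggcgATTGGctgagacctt
The 3 genes with the shared order held no motif of the 4 in common in these windows. Agtrap held 1 CACGTG, a motif in 6.02% of 32851 mouse promoter windows of this length. Enpep held 1 TATAA and 1 CCAAT, both on the reverse strand, found in 22.8% and 33.8% of windows. Mme held 1 GGGCGG, found in 32.7% of windows, and Atp6ap2 held 2 GGGCGG and 3 CCAAT, with 1 of each sharing a base. The motifs of Mme depend on the start chosen. Its downstream starts, not printed, held 2 GGGCGG each, with 2 and 1 CCAAT, a motif that Enpep held too. A match describes the letters and is no evidence of binding. Of the 9 genes, 8 had a promoter entry, with 11 starts in all. The bases after each printed start did not match a GENCODE transcript of the gene as an unbroken run. Those after the downstream starts of Mme did.

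**Figure D2:**
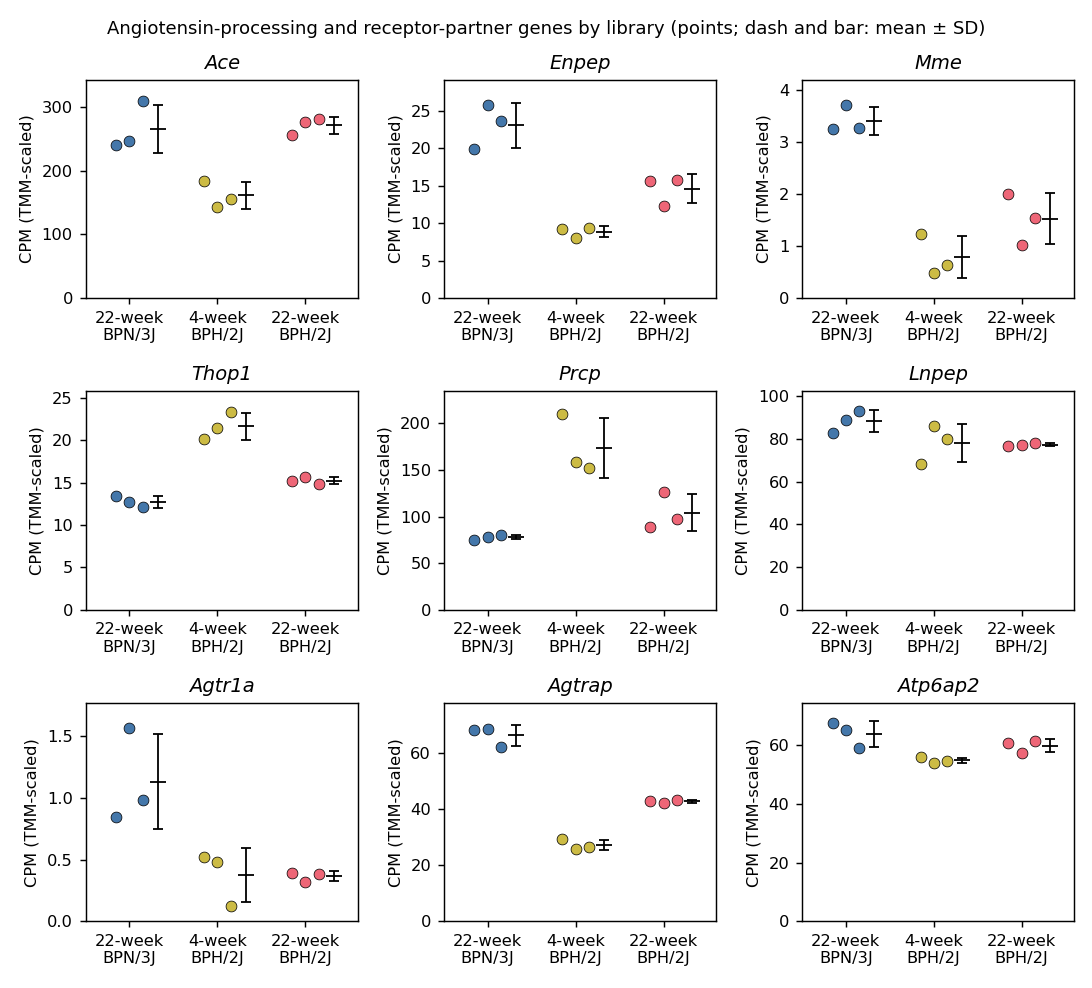
CPM of each gene in each library, with 1 panel per gene and its own axis from 0; points are libraries and bars are the group mean ± SD. Agtrap and Enpep step down from BPN/3J to 22-week to 4-week BPH/2J without overlap, and Ace in 4-week BPH/2J lies below all 6 libraries of 22-week mice.

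Ace (ENSMUSG00000020681, chromosome 11), the converting enzyme itself, was lower in the hearts of young BPH/2J mice and did not pass the test between the strains at 22 weeks. It stood at 241, 246 and 309 CPM in BPN/3J, at 184, 143 and 156 CPM in 4-week BPH/2J and at 256, 276 and 281 CPM in 22-week BPH/2J. Every library of 4-week mice was below every library of 22-week mice of either strain, and the 22-week groups overlapped. Within BPH/2J, Ace was 1.68-fold higher at 22 weeks (log2 difference 0.75 ± 0.11 SE, edgeR adjusted p = 0.000531). At 4 weeks it was 1.65-fold lower than in BPN/3J (-0.72 ± 0.11, edgeR adjusted p = 0.000353). Between the strains at 22 weeks the log2 difference was 0.03, with a 95% interval of -0.22 to 0.28 and an edgeR adjusted p of 0.846. Leaving out replicate 1 of 4-week BPH/2J, the highest of its group, gave 0.86 for age and -0.83 against BPN/3J.

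The exons of Ace share 295 of 5287 bases, or 5.58%, with those of Gm11651, an annotated gene on the other strand, and no source used here gives the strand setting of the counting. No such overlap was found for the other 8 genes in the GENCODE annotation. Ace also has an internal start, known for the short enzyme of male germ cells, and counts per gene sum both forms.

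Thop1 (ENSMUSG00000004929, chromosome 10) encodes thimet oligopeptidase, a mostly cytosolic enzyme that turns angiotensin I into angiotensin-(1-7) and also cuts bradykinin. It read 13.5, 12.7 and 12.1 CPM in BPN/3J, 20.2, 21.4 and 23.3 CPM in 4-week BPH/2J and 15.2, 15.7 and 14.9 CPM in 22-week BPH/2J. The 3 groups did not overlap, with 4-week BPH/2J highest. It was 1.70-fold higher in 4-week BPH/2J than in BPN/3J (log2 difference 0.76 ± 0.08, edgeR adjusted p = 2.95e-05) and 1.42-fold lower at 22 than at 4 weeks (-0.51 ± 0.08, edgeR adjusted p = 0.000808). The strain difference at 22 weeks was small, 1.20-fold higher in BPH/2J (0.26 ± 0.08, edgeR adjusted p = 0.0329). In the authors' deposited table that difference carried a false discovery rate of 0.06, the only call on the 9 genes that differed from the calls given here. It also missed the threshold without BPN/3J replicate 2 or 3 or any 1 of the 22-week BPH/2J libraries, at an edgeR adjusted p of 0.0572 to 0.0991.

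Mme (ENSMUSG00000027820, chromosome 3), neprilysin, is a membrane enzyme that makes angiotensin-(1-7) from angiotensin I and degrades natriuretic peptides and bradykinin. It was a low transcript here, with 96, 107 and 93 counts in BPN/3J, 38, 14 and 21 in 4-week BPH/2J and 62, 32 and 48 in 22-week BPH/2J. These came to 3.24, 3.72 and 3.26 CPM, to 1.24, 0.483 and 0.645 CPM and to 2.01, 1.03 and 1.55 CPM. All BPN/3J libraries were above all BPH/2J libraries, whereas the BPH/2J ages overlapped. Against BPN/3J, Mme was 2.23-fold lower in 22-week BPH/2J (log2 difference -1.15 ± 0.30, edgeR adjusted p = 0.012) and 4.29-fold lower in 4-week BPH/2J (-2.10 ± 0.32, edgeR adjusted p = 0.000323). The age difference of 1.93-fold lay close to the threshold (0.95 ± 0.34, edgeR adjusted p = 0.0467). Without replicate 1 of 4-week BPH/2J the age difference was 1.43 at an adjusted p of 0.00425 and the difference of 4-week BPH/2J from BPN/3J was -2.58. Leaving out any BPN/3J library, replicate 2 or 3 of 4-week BPH/2J, or replicate 1 or 3 of 22-week BPH/2J ended the age call, with adjusted p of 0.0626 to 0.172.

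Enpep (ENSMUSG00000028024, chromosome 3) encodes aminopeptidase A, which removes the first residue of angiotensin II and so makes angiotensin III. Its values were 19.9, 25.8 and 23.6 CPM in BPN/3J, 9.23, 8.07 and 9.42 CPM in 4-week BPH/2J and 15.7, 12.4 and 15.8 CPM in 22-week BPH/2J. No library of one group reached into another. Enpep was 1.58-fold lower in BPH/2J than in BPN/3J at 22 weeks (log2 difference -0.66 ± 0.13, edgeR adjusted p = 0.00235). Within BPH/2J it was 1.64-fold higher at 22 weeks than at 4 weeks (0.71 ± 0.13, edgeR adjusted p = 0.0017). From BPN/3J to 4-week BPH/2J it differed by 2.59-fold (-1.37 ± 0.13, edgeR adjusted p = 1.16e-05). Pericytes are a known source of aminopeptidase A. Their 10 markers did not move one way: between the strains at 22 weeks 2 were higher in BPH/2J and 2 lower (median log2 difference -0.08). From BPN/3J to 4-week BPH/2J 3 were higher and 1 lower (median 0.20), and with age 1 was higher and 3 lower (median -0.20). Des was lower in BPH/2J at 22 weeks (-1.39) and at 4 weeks (-1.66), as Enpep was, whereas Mcam was higher (0.77 and 1.61). The part of pericytes in the difference of Enpep was not tested.

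Prcp (ENSMUSG00000061119, chromosome 7) encodes prolylcarboxypeptidase, which takes the last residue from angiotensin II and yields angiotensin-(1-7). It moved against Enpep, at 75.3, 78.1 and 80.3 CPM in BPN/3J, 210, 159 and 152 CPM in 4-week BPH/2J and 88.5, 126 and 97.8 CPM in 22-week BPH/2J. The groups did not overlap, and the spread was wider in BPH/2J, where 1 library of each age stood above the other two. Prcp was 2.23-fold higher in 4-week BPH/2J than in BPN/3J (log2 difference 1.16 ± 0.14, edgeR adjusted p = 7.45e-05). At 22 weeks it was 1.67-fold lower than at 4 weeks (-0.74 ± 0.14, edgeR adjusted p = 0.00231) and 1.34-fold higher than in BPN/3J (0.42 ± 0.14, edgeR adjusted p = 0.0395). Without replicate 1 of 4-week BPH/2J the first of these was 1.00 and the second -0.57, both still past the threshold. The strain difference at 22 weeks missed the threshold without BPN/3J replicate 1, 2 or 3 or 22-week BPH/2J replicate 2 or 3, at adjusted p of 0.057 to 0.142, and without 22-week BPH/2J replicate 2 it was 0.26.

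Lnpep (ENSMUSG00000023845, chromosome 17), the insulin-regulated aminopeptidase, cuts oxytocin and vasopressin and is known as the binding site of angiotensin IV. None of its 3 comparisons passed the test. It read 82.9, 88.8 and 93.3 CPM in BPN/3J, 68.3, 86.0 and 80.2 CPM in 4-week BPH/2J and 76.8, 77.1 and 78.3 CPM in 22-week BPH/2J. The 22-week BPH/2J libraries were all below those of BPN/3J, with a log2 difference of -0.19 (95% interval -0.37 to -0.01, edgeR adjusted p = 0.0882). The difference of 4-week BPH/2J from BPN/3J was -0.18 (interval -0.36 to 0.00, adjusted p = 0.0916 in edgeR), and that between the ages was -0.01 (interval -0.19 to 0.17, adjusted p = 0.903 in edgeR). The strain difference at 22 weeks passed without replicate 1 of 4-week BPH/2J, at an adjusted p of 0.0193, and the difference of 4-week BPH/2J from BPN/3J passed without replicate 2 of 4-week BPH/2J, at 0.031.

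Agtr1a (ENSMUSG00000049115, chromosome 13) encodes the type 1 angiotensin II receptor, through which angiotensin II constricts vessels. It was near the limit of detection, with 25, 45 and 28 counts in BPN/3J, 16, 14 and 4 in 4-week BPH/2J and 12, 10 and 12 in 22-week BPH/2J. These counts came to 0.844, 1.56 and 0.982 CPM, to 0.522, 0.483 and 0.123 CPM and to 0.389, 0.322 and 0.387 CPM. The BPN/3J libraries were above all 6 BPH/2J libraries, and the BPH/2J ages overlapped. The receptor was 3.06-fold lower in 22-week BPH/2J than in BPN/3J (log2 difference -1.61 ± 0.42, edgeR adjusted p = 0.012) and 3.02-fold lower in 4-week BPH/2J (-1.59 ± 0.42, edgeR adjusted p = 0.00835). Between the ages the log2 difference was -0.02, and its 95% interval of -1.09 to 1.05 spans more than a doubling either way. Without BPN/3J replicate 2, the highest library, the strain difference at 22 weeks was -1.31 at an adjusted p of 0.0527. Agtr1a has a near-identical paralog, Agtr1b, which was not matched by symbol, so how reads were split between the pair is uncertain.

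Agtrap (ENSMUSG00000029007, chromosome 4) encodes the type 1 receptor-associated protein, which binds the tail of the receptor and promotes its internalization. Its level per length was well above that of the receptor, and it gave the smallest adjusted p of the 9 genes in every comparison. The values were 68.0, 68.6 and 62.1 CPM in BPN/3J, 29.4, 25.7 and 26.5 CPM in 4-week BPH/2J and 42.8, 42.2 and 43.2 CPM in 22-week BPH/2J. The groups lay far apart relative to their spread, with SDs of 3.62, 1.93 and 0.526 CPM. Agtrap was 1.55-fold lower in BPH/2J than in BPN/3J at 22 weeks (log2 difference -0.63 ± 0.07, edgeR adjusted p = 5.75e-05). It was 1.57-fold higher at 22 weeks than at 4 weeks (0.65 ± 0.07, edgeR adjusted p = 5.73e-05) and 2.43-fold lower in 4-week BPH/2J than in BPN/3J (-1.28 ± 0.07, edgeR adjusted p = 2.98e-07).

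Atp6ap2 (ENSMUSG00000031007, chromosome X), the (pro)renin receptor, binds renin and its precursor and is also an accessory subunit of the vacuolar proton pump. It stayed between 54.1 and 67.4 CPM in all libraries. Its values were 67.4, 65.1 and 59.0 CPM in BPN/3J, 55.9, 54.1 and 54.6 CPM in 4-week BPH/2J and 60.8, 57.2 and 61.5 CPM in 22-week BPH/2J. The 4-week libraries were below all others. Only the difference of 4-week BPH/2J from BPN/3J passed, at 1.16-fold lower (log2 difference -0.22 ± 0.06, edgeR adjusted p = 0.0129), and it missed without BPN/3J replicate 1 (adjusted p = 0.0558). The strain difference at 22 weeks was -0.09 (95% interval -0.23 to 0.04, edgeR adjusted p = 0.26) and the age difference was 0.13 (interval -0.01 to 0.26, edgeR adjusted p = 0.133).

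Levels of different genes were compared as CPM per kilobase of the deposited gene length. On that scale Ace led in both 22-week groups, and Prcp led in 4-week BPH/2J, where its lead rested on the deposited length. In BPN/3J, Ace stood at 50.2 ± 7.12 CPM per kilobase, above Prcp at 26.4 ± 0.842 and Atp6ap2 at 24.4 ± 1.67, whose libraries overlapped. Lnpep (17.1 ± 1.01) and Agtrap (15.6 ± 0.856) came next and overlapped too, followed by Enpep at 4.91, Thop1 at 2.52, Mme at 0.778 and Agtr1a at 0.458. In 4-week BPH/2J, Prcp at 58.7 ± 10.8 was above Ace at 30.5 ± 3.97, and Atp6ap2 at 21.0 and Lnpep at 15.1 followed. Agtrap was at 6.42, Thop1 at 4.28 and Enpep at 1.89 there, and Mme at 0.180 overlapped Agtr1a at 0.152. In 22-week BPH/2J, Ace at 51.3 ± 2.58 was above Prcp at 35.3 ± 6.69, Atp6ap2 at 22.9, Lnpep at 14.9 and Agtrap at 10.1. Enpep at 3.11 and Thop1 at 3.01 overlapped, and Mme at 0.349 was above Agtr1a at 0.148. With these lengths Agtr1a had the lowest mean of the 9 genes in every group.

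**Figure D3:**
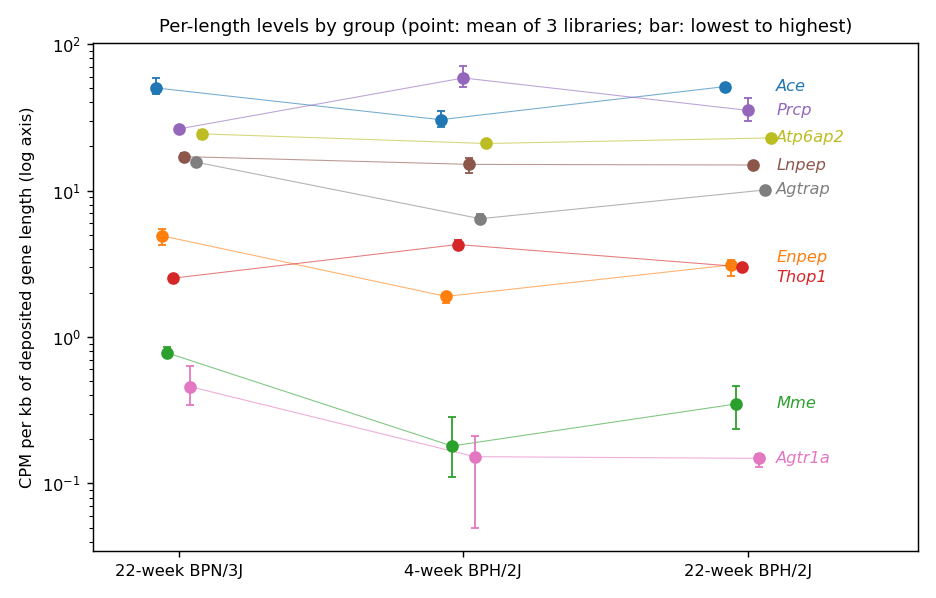
Mean CPM per kilobase of deposited gene length for each gene in each group on a log axis, with bars from the lowest to the highest library. Ace is uppermost in both 22-week groups and Prcp in 4-week BPH/2J, and Agtr1a is lowest throughout.

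The ratio of Ace to Prcp per length, the pair at the top, was singled out after these values were seen. It was 1.79, 1.76 and 2.15 in BPN/3J, 0.490, 0.503 and 0.576 in 4-week BPH/2J and 1.62, 1.22 and 1.61 in 22-week BPH/2J. No groups overlapped, and each of the 3 two-sided exact permutation tests gave p = 0.1, before and after adjustment, the smallest that 3 libraries against 3 allow. The deposited lengths of Prcp, Lnpep, Mme and Agtr1a were 2956, 5181, 4379 and 2467 bases, shorter than the 5497, 14144, 11542 and 2786 exon bases of the GENCODE annotation. With the exon bases in place of the deposited lengths, an alternative chosen after seeing the data, the order changed. Mme was then below Agtr1a in BPN/3J (0.295 against 0.406 CPM per kilobase) and in 4-week BPH/2J (0.0684 against 0.135), with overlapping libraries. Prcp and Ace overlapped in 4-week BPH/2J (31.6 ± 5.81 and 30.5 ± 3.97), where their ratio was 0.911, 0.936 and 1.07. The mean of Prcp dropped below that of Atp6ap2 in both 22-week groups, with overlapping libraries in BPH/2J, and Ace still led there. Fold differences of the ratio between groups do not depend on the length.

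For each gene with a call in some comparison, the gene most like it over the 9 libraries was found. It had the smallest root mean square difference of log2 CPM after each gene's mean was removed. A small constant was added to every CPM before the log, which shrinks the differences and the spread of low genes. The candidates were 10138 or 10139 genes of at least 5 CPM. Agtrap was matched by Rgag4, at a difference of 0.0898 against Agtrap's own spread of 0.522 around its mean. Enpep was matched by the integrin subunit gene Itga3 (0.113 against 0.558), whose means in BPN/3J, 4-week and 22-week BPH/2J were 28.9, 12.1 and 17.8 CPM. Mme was matched by the cardiac myosin-binding protein gene Mybpc3 (0.170 against 0.725), at 58.6, 19.8 and 27.6 CPM. Prcp was matched by the endothelial and progenitor surface marker Cd34 (0.103 against 0.502), at 667, 1375 and 862 CPM. Thop1 followed the arginyl-tRNA synthetase gene Rars (0.0400 against 0.314), at 36.5, 60.7 and 43.4 CPM. Ace followed Lppr2 (0.0784 against 0.371), Atp6ap2 followed Nbn (0.0212 against 0.104) and Agtr1a followed the alpha-globin gene Hba-a2 (0.187 against 0.488). The matches of the low genes Agtr1a and Mme depend on the constant. In the edgeR fit, Agtr1a differed from BPN/3J by -1.61 at 22 and -1.59 at 4 weeks, and Hba-a2 by only -0.65 and -0.74. For 4-week BPH/2J, Mme was at -2.10 and Mybpc3 at -1.56. These are descriptions over libraries that share their groups.

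Among 20 other genes of angiotensin and related peptide processing, 14 were in the table and 12 were tested. Ren1, Agtr1b, Agtr2, Mrgprd, Klk1 and Tmem27 had no matching symbol. In 22-week BPH/2J against BPN/3J 3 were higher and 2 lower, with a median log2 difference of -0.06 beside 0.02 over all tested genes. Of all tested genes, 38% passed between the strains, 41% with age and 53.1% from BPN/3J to 4-week BPH/2J. These shares are the background for the counts of every list of genes and markers. Ctsa, cathepsin A, was higher (log2 difference 0.35, edgeR adjusted p = 0.000676), as was Dpp3, a dipeptidyl peptidase that degrades angiotensin II (0.34, edgeR adjusted p = 0.0022). Rnpep, aminopeptidase B, was lower (-0.42, edgeR adjusted p = 0.00486), as was Nln, neurolysin, the relative of Thop1 (-0.34, edgeR adjusted p = 0.0211).

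With age in BPH/2J 2 of these 12 were higher and 6 lower (median -0.14, all tested genes 0.01). From BPN/3J to 4-week BPH/2J 6 were higher and 2 lower (median 0.17, all tested genes 0.00). Prep, prolyl oligopeptidase, stood at 25.3 ± 0.877 CPM in BPN/3J, 57.1 ± 6.32 CPM in 4-week BPH/2J and 33.1 ± 0.341 CPM in 22-week BPH/2J. It was the same order as for Thop1 and Prcp, with log2 differences of 1.17 from BPN/3J to 4-week BPH/2J (edgeR adjusted p = 1.58e-06) and -0.78 with age (edgeR adjusted p = 5.02e-05). Ctsd, cathepsin D, a renin-like acid protease, was low in 4-week BPH/2J as Ace was, at 271 ± 5.85 CPM against 425 ± 16.6 in BPN/3J and 406 ± 11.1 in 22-week BPH/2J. Its log2 differences were -0.65 from BPN/3J (edgeR adjusted p = 8.14e-06) and 0.58 with age (edgeR adjusted p = 4.67e-05). Mas1, the receptor of angiotensin-(1-7), averaged 0.624 CPM in BPN/3J, 0.107 CPM in 4-week BPH/2J and 0.323 CPM in 22-week BPH/2J. It was thus at about the floor of 3 counts in the young mice, and no fold is given for it.

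Chymase and its companions were singled out after their values were seen. Cma1, a mast cell chymase, stood at 1.15, 2.15 and 1.16 CPM in BPN/3J, 13.5, 5.24 and 4.97 CPM in 4-week BPH/2J and 2.43, 3.02 and 2.42 CPM in 22-week BPH/2J. All 4-week libraries were above the rest, with replicate 1 highest (edgeR adjusted p = 0.000631 against BPN/3J and 0.00767 with age). Cpa3, the mast cell carboxypeptidase, averaged 2.26 ± 0.965 CPM, 8.32 ± 4.65 CPM and 3.49 ± 0.792 CPM in the same order of groups. The part of mast cell number in these values was not tested.

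The proton pump, the other partner of Atp6ap2, showed no common direction. Of 15 subunit genes, 4 were higher and 3 lower between the strains at 22 weeks (median 0.04), beside 38% of all tested genes called. With age 2 were higher and 2 lower (median 0.05, all tested genes 41% called). From BPN/3J to 4-week BPH/2J 5 were higher and 4 lower (median 0.05, all tested genes 53.1% called). Atp6v1d was lower in BPH/2J than in BPN/3J at both ages (log2 differences -0.60 at 22 weeks, edgeR adjusted p = 0.000208, and -0.53 at 4 weeks, edgeR adjusted p = 0.000196). Atp6ap1, the other accessory subunit, was higher at 22 than at 4 weeks in BPH/2J (0.33, edgeR adjusted p = 0.0014).

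Signalling partners of the receptor were split as well. Of 15 genes, 4 were higher and 5 lower between the strains (median -0.03), 3 higher and 4 lower with age (median -0.16), and 3 higher and 4 lower from BPN/3J to 4-week BPH/2J (median -0.06). Arrb1, beta-arrestin 1, which binds the activated receptor, was higher in BPH/2J at 22 weeks (log2 difference 0.63, edgeR adjusted p = 0.000326) and at 4 weeks (0.80, edgeR adjusted p = 2.92e-05), where Agtr1a was lower. Gna12, a G protein subunit, was higher in 4-week BPH/2J than in BPN/3J (0.74, edgeR adjusted p = 2.24e-05). Plcb1, a phospholipase C, was higher at 22 than at 4 weeks in BPH/2J (0.63, edgeR adjusted p = 0.000166).

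Of 15 peptidases related to the 9 genes, 13 were in the table and 10 were tested. In the strain comparison 1 was higher and 1 lower (median 0.11), with age 3 were higher and 2 lower (median 0.14), and from BPN/3J to 4-week BPH/2J 2 were higher and 0 lower (median -0.10). Npepps, the puromycin-sensitive aminopeptidase, was lower in 22-week BPH/2J than in BPN/3J (-0.41, edgeR adjusted p = 0.00195). Ece2, a relative of Mme that processes endothelin and other peptides, was higher in 4-week BPH/2J than in BPN/3J (1.29, edgeR adjusted p = 0.000107) and fell by 1.16 on the log2 scale with age (edgeR adjusted p = 0.000412).

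**Figure D4:**
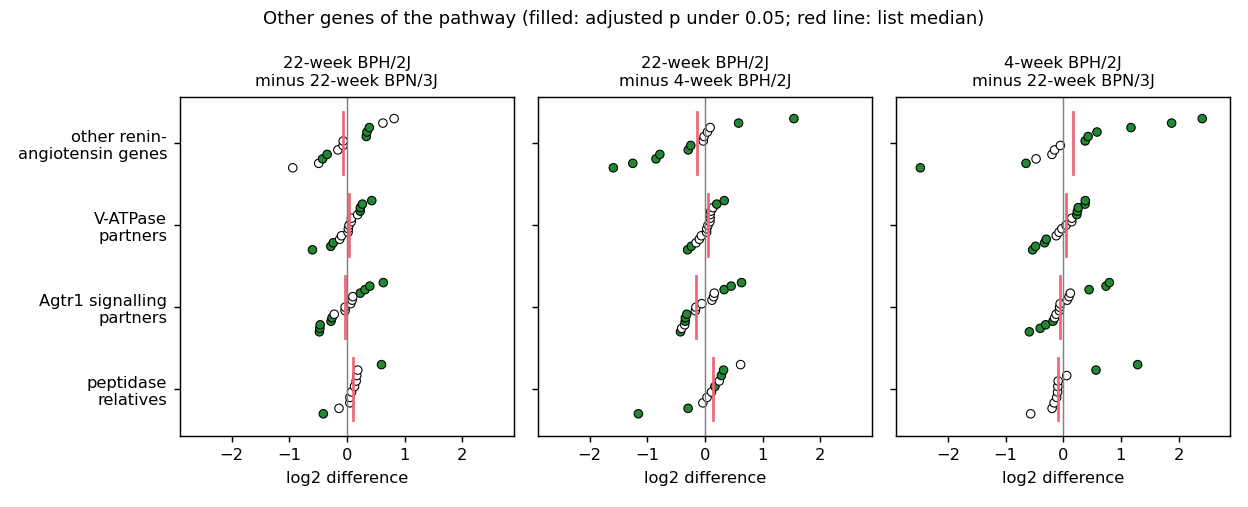
Log2 differences of the tested genes on the 4 lists in each comparison, 1 point per gene, with a line at the median of each list. Points lie on both sides of 0 in every list, and the medians run from -0.16 to 0.17.

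Markers of heart cells also differed between the groups. Of the 12 endothelial markers, 6 were higher and 2 lower between the strains at 22 weeks. With age 4 were higher and 1 lower, and from BPN/3J to 4-week BPH/2J 3 were higher and 2 lower. The 12 cardiomyocyte markers, all in the table and 11 tested, summed to 1171 to 1353 CPM in BPN/3J, 792 to 890 CPM in 4-week BPH/2J and 749 to 866 CPM in 22-week BPH/2J. Of those tested, 7 were lower in 22-week BPH/2J than in BPN/3J and 8 were lower in 4-week BPH/2J. With age 1 was higher, 1 lower and 9 not called. Median log2 differences of these markers were -0.54 between the strains, 0.20 with age and -0.70 from BPN/3J to 4-week BPH/2J. Myh6, the marker higher with age (0.58), had the order of Agtrap, Enpep and Mme, whereas Atp2a2 was lower with age (-0.52). The 10 fibroblast markers summed to 589 to 662, 526 to 828 and 458 to 548 CPM, with replicate 1 of 4-week BPH/2J highest. Of these 10, 1 was higher and 4 lower between the strains (median log2 difference -0.42), 3 higher and 3 lower with age (median -0.09), and 3 higher and 5 lower from BPN/3J to 4-week BPH/2J (median -0.45). The collagen gene Col3a1 was highest in 4-week BPH/2J, with log2 differences of 2.64 from BPN/3J and -1.45 with age. The fibroblast proteoglycan gene Dcn had the order of Agtrap, Enpep and Mme, at 347 ± 20.6 CPM in BPN/3J, 133 ± 40.0 CPM in 4-week BPH/2J and 219 ± 51.5 CPM in 22-week BPH/2J. Mme, a known fibroblast transcript as well, was at 3.41, 0.789 and 1.53 CPM in these groups. Pericyte markers summed to 973 to 1212, 1801 to 2014 and 1428 to 1533 CPM, most of it from Rgs5 (means of 470, 853 and 776 CPM) and Mcam (241, 737 and 410 CPM), while Des (103, 32.5 and 39.2 CPM) was highest in BPN/3J. Macrophage markers summed to 377 to 635, 421 to 811 and 222 to 260 CPM. Of 11 tested, 8 were lower between the strains at 22 weeks and 9 lower with age, and 1 was higher from BPN/3J to 4-week BPH/2J. The part of these cells in the differences of the 9 genes was not tested. The share of mitochondrial counts ran from 2.02% to 2.78% in BPN/3J, 1.19% to 2.63% in 4-week BPH/2J and 1.45% to 1.91% in 22-week BPH/2J. What sets this share was not tested.

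**Figure D5:**
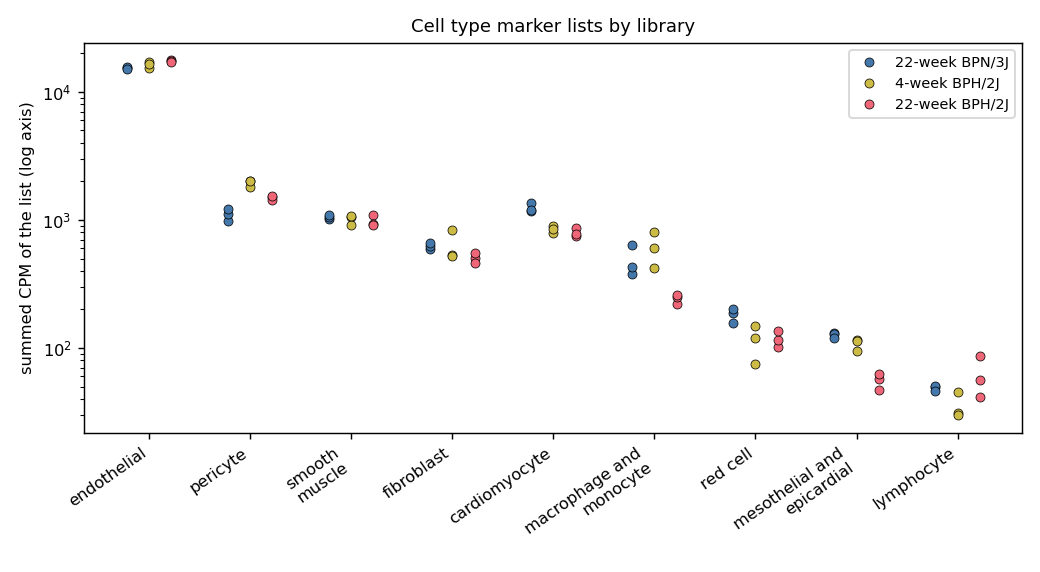
Summed CPM of the markers of each heart cell type in each library on a log axis, with points coloured by group. Endothelial sums lie between 14985 and 17605 CPM in all libraries, pericyte sums are highest in 4-week BPH/2J, and cardiomyocyte sums are highest in BPN/3J.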

How the data were processed

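Per the labels' protocols, endothelial cells were taken from hearts with magnetic beads, and polyA RNA was fragmented, copied with random hexamers and read as single reads. The submitters' processing notes name TopHat2 2.0.13, Bowtie2, featureCounts and edgeR, and the build mm9. For the annotation release and strand setting, the sources used here give nothing. The authors deposited raw counts for 18094 genes, CPM values that equal count over column total, gene lengths, and their own log2 fold changes with p-values. The smallest gene total was 10 counts.

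The 9 genes and all lists were chosen with earlier results of these data known. Libraries were grouped by strain and age, 3 per group. Genes were kept by filterByExpr (15277), scaled by trimmed mean of M values and fitted on group over all 9 libraries in edgeR 4.0.16, with two-sided quasi-likelihood F tests and Benjamini-Hochberg adjustment over all tested genes at 0.05. SE is the absolute log2 difference over the square root of F. All 9 genes are named. From each list the 2 called genes of smallest adjusted p per direction and comparison could be named, and the genes most like each called gene. The values of 1 listed gene are not reported here. Promoter windows came from RefSeq. The script was tested on simulated data. Alternatives were other scalings, filters, tests and fits, among them DESeq2 1.42.0 and limma 3.58.1, and leaving out each library. R 4.3.3, Python 3.11.15, scipy 1.17.1 and matplotlib 3.10.9 were used.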

Additional observations from a re-analysis of the deposited data

How the results depend on the processing

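Between the strains at 22 weeks, 6 of the 9 genes and 5810 of all genes passed. Leaving out each library in turn gave 3 to 7 and 4362 to 7117, with 3 without BPN/3J replicate 2. For age within BPH/2J, 6 and 6257 became 5 to 6 and 4606 to 7383, and for 4-week BPH/2J against BPN/3J, 8 and 8115 became 7 to 9 and 6968 to 8682. A filter of 1 CPM in 3 libraries removed Agtr1a, which then had no value. Equal replicate numbers did not pair the libraries: residual correlations of equal numbers ran from -0.203 to 0.103, with 1 of 9 above 0.1. With the replicate number as a block, 4, 6 and 8 of the genes and 5261, 5758 and 7723 of all genes passed, and Prcp (adjusted p = 0.0614) and Thop1 (0.0656) missed between the strains in edgeR. With only the compared groups in the edgeR fit, Mme missed with age (adjusted p = 0.0897) and Lnpep passed between the strains (0.0194). Calls on Ace, Agtrap and Enpep were the same under every alternative run. No called difference reversed. Levels without the gene length left 5 of the 9 genes at their place in the order in BPN/3J and 5 in 22-week BPH/2J, and annotated exon bases as the length, chosen after seeing the data, left 3 in BPN/3J and 5 in either BPH/2J group. Counts of 4 to 45 per library limit Agtr1a.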
